A study of Homo sapiens with 4 samples.

Results

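The members described here are the genes of the core splicing machinery and of the RNA-binding factors that steer it: the SR proteins (SRSF followed by a number), the subunits of splicing factors 3A and 3B (SF3A, SF3B), the U2 auxiliary factor family (U2AF), the proteins of the small nuclear ribonucleoproteins (SNRP) and the heterogeneous nuclear ribonucleoproteins (HNRNP). They were chosen by a rule on gene symbols, set with earlier results of these data known, and 62 of the 19314 genes listed met the rule. A value above 0 in at least 1 library was present for 60 of them, and HNRNPCL3 and HNRNPCL4 were listed without a value. The comparison was between U87 cells, a human malignant glioma line, carrying a hairpin against PTPRN (PTPRN knockdown, libraries PTP2_1 and PTP2_2) and U87 cells carrying a scrambled hairpin (SCR, libraries SCR 1 and SCR 2), with total RNA sequenced once for each of 2 libraries per group. The knockdown libraries came from 1 hairpin in a pLKO.1 vector, so effects of that hairpin on other genes cannot be told apart from effects of the knockdown. Nothing in the labels says that the libraries came from separate cultures, so p-values measured only the spread between these libraries, which may be technical.

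Introns are removed from pre-mRNA by the spliceosome, which assembles on each intron from small nuclear ribonucleoproteins (snRNPs). The U1 snRNP recognizes the 5′ splice site, U2AF binds the polypyrimidine tract and the AG at the 3′ splice site, and the U2 snRNP with its SF3A and SF3B complexes engages the branch point. A ring of Sm proteins forms around the U1, U2, U4 and U5 small nuclear RNAs, while SR proteins mostly promote exon inclusion and hnRNP proteins often oppose it or act on later steps of the life of the mRNA.

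The level of the targeted gene was checked first. PTPRN, a receptor-type tyrosine phosphatase family member, stood at 12.09 and 11.68 FPKM in the knockdown libraries and at 84.84 and 85.02 FPKM in the SCR libraries. Both knockdown libraries were lower, by 2.74 on the log2(FPKM + 1) scale (SE 0.033, limma, adjusted p = 1.48e-04). FPKM is the number of fragments of a gene scaled by its transcript length and by the library's mapped fragments, so it is a level per length. The depth, estimated from the steps between low FPKM values, was 18200000 to 19700000 reads per library, and values of replicates correlated at 0.999 within either group across genes. Although the growth protocol names the brain endothelial line hCMEC/D3, the endothelial markers CDH5 and CLDN5 did not exceed 0.03 FPKM in any library and VWF and PECAM1 did not exceed 2.5 FPKM. VIM and CD44 were abundant, with 4665 and 315 FPKM on average in the knockdown libraries and 1958 and 152 FPKM in the SCR libraries, while GFAP did not exceed 0.55 FPKM. On the same list CHI3L1, SOX9 and NES were lower with knockdown, at 30.4, 2.79 and 3.26 FPKM against 90.7, 10.3 and 13.6 FPKM on average, and the part of this shift in the changes below was not tested. CDKN2A and MTAP, from a locus deleted in U87, did not exceed 0.34 FPKM.

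Of the 60 members tested, 28 were higher and 7 lower with PTPRN knockdown at an adjusted p no larger than 0.05, while 25 were not called (limma on log2(FPKM + 1), adjusted over all 16595 genes tested). The shares were 46.7% higher and 11.7% lower, beside 30.8% higher and 27.1% lower over all genes tested. Most members are abundant, and abundant genes were called more often. Among genes with a mean of at least 10 FPKM, 47.1% were higher and 31.7% lower, beside 52.8% and 11.3% of the 53 members at that level. The share of higher members was therefore near the background of abundant genes, and the share of lower members was below it. The groups did not overlap for 42 members with the knockdown libraries above and 9 with them below. Over all 16595 genes those counts were 6596 and 5945, together 75.6%. Among the 6257 genes of at least 10 FPKM they were 3418 and 2347, with 492 overlapping. Of the 53 members at that level, 40 were above, 8 below and 5 overlapping. Most abundant genes thus did not overlap, members or not. The median log2 fold change of the members was 0.12, beside 0.012 over all genes and 0.11 over the abundant ones. Rises and falls cancel in such a median, so it describes direction and not the size of the changes. A fold change of at least 2 with an adjusted p of at most 0.001 was met by 1 member in the upward direction, SNRPA1, and by 0 downward, beside backgrounds of 2.63% and 4.06%. Summed over the 60 members, the level was 4756 and 4693 FPKM in the knockdown libraries and 4021 and 4025 FPKM in the SCR libraries, a ratio of 1.17. FPKM is scaled by each library's mapped fragments, so this rise of the sum is relative to the other genes. In bulk RNA such as this, a change in the mix of cells and a change in RNA per cell cannot be told apart.

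**Figure D1:**
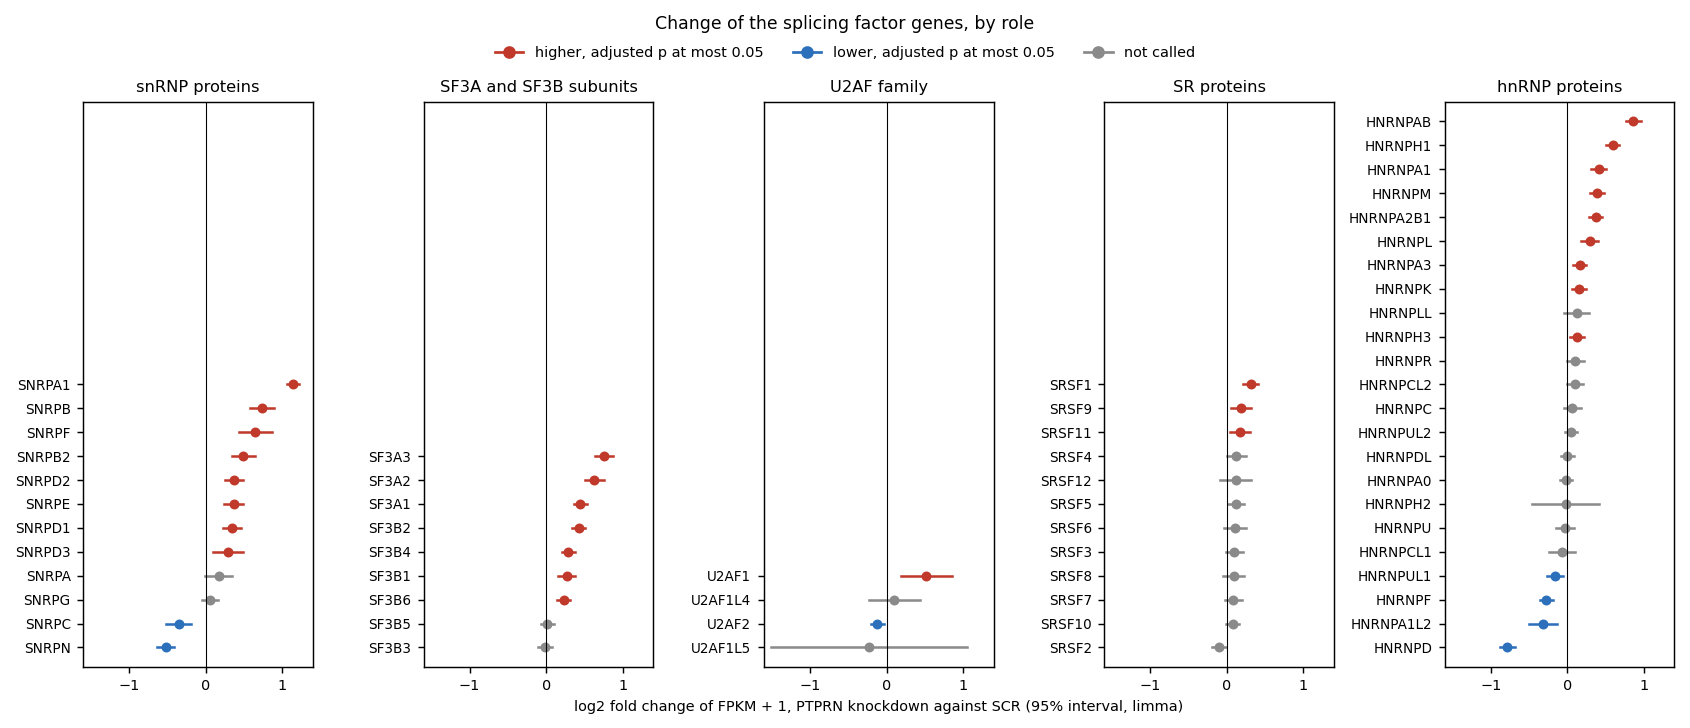
Log2 fold change of FPKM + 1 for each of the 60 members with its 95% interval from limma (x axis), PTPRN knockdown against SCR, in 1 panel per role. Red points are higher and blue points lower at an adjusted p of at most 0.05, grey points were not called, and the snRNP and SF3 panels hold 15 of the 28 red points.

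The counts of called members changed with an adjustment for transcript composition. When trends of each library's log2 values on the GC content and length of the transcripts were removed, 20 members were higher and 11 lower, beside 28 and 7, and their median was 0.0020. All genes were then called higher in 35.6% and lower in 34.4% of cases. Of the 28 members called higher, 18 were still called higher, and of the 7 called lower, 5 were still called lower. The median GC content of the members was 43.2%, beside 48.7% over all genes. Across the 60 members themselves the change had a Spearman correlation of -0.0069 with GC content and -0.22 with length. That length was the deposited transcript length, not the one used for the trends. The part that composition plays in any single change was not tested. For the members described in detail, the value with the trends removed is therefore given where it turned a direction or a call.

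Most U2 snRNP proteins rose. SNRPA1, the U2 A′ protein that binds stem-loop IV of U2 small nuclear RNA, had the largest rise of all members. It was at 74.15 and 73.87 FPKM with PTPRN knockdown and at 32.98 and 32.95 FPKM with SCR. Replicates differed by less than 1 FPKM and the groups stood far apart, with a ratio of 2.25 and a log2 fold change of 1.14 (SE 0.028, limma, adjusted p = 2.68e-04). The gene (NCBI Gene 6627) lies at chr15:101281510-101295282 on the minus strand of GRCh38, and about 674 reads in the library SCR 1 lay behind its value. With the GC content and length trends removed, its log2 fold change was 0.87 and the adjusted p was 6.75e-05, so it stayed called but no longer reached a fold of 2. Its partner SNRPB2, the U2 B″ protein, had 26.56 and 27.34 FPKM against 18.07 and 19.70 FPKM. The knockdown libraries were again above both SCR libraries (log2 fold change 0.49, SE 0.054, adjusted p = 0.00357), although the call was lost without either knockdown library, where the highest adjusted p was 0.0704, and the change was 0.16 (adjusted p = 0.0440) with the composition trends removed.

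All 3 subunits of SF3A, the complex that joins the mature U2 snRNP, rose. SF3A3 stood at 46.99 and 45.15 FPKM with knockdown and at 27.56 and 26.21 FPKM with SCR. That is a ratio of 1.71, with the groups clearly apart (log2 fold change 0.76, SE 0.043, limma, adjusted p = 8.22e-04). SF3A2 had 53.61 and 51.04 FPKM against 34.15 and 32.78 FPKM, a ratio of 1.56 with no overlap (log2 fold change 0.63, adjusted p = 0.00119). SF3A1, which carries the ubiquitin-like domain of the complex, had 30.12 and 30.44 FPKM against 21.81 and 22.14 FPKM. Its replicates lay within 1 FPKM of each other and its ratio was 1.38 (log2 fold change 0.45, adjusted p = 0.00110). Once the composition trends were removed, SF3A1 and SF3A2 rose by more, 0.55 and 0.84, and SF3A3 by slightly less, 0.73.

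Of the 6 SF3B subunits among the members, 4 rose and 2 were not called. SF3B2 had the highest level of the SF3 genes, with 179.08 and 180.71 FPKM against 132.51 and 134.56 FPKM. Both knockdown values were above both SCR values (log2 fold change 0.43, SE 0.029, adjusted p = 0.00120). SF3B1, the subunit that clamps the branch point and is often mutated in myelodysplasia, had 71.93 and 74.55 FPKM against 59.82 and 61.59 FPKM. This rise, a ratio of 1.21, was smaller (log2 fold change 0.27, adjusted p = 0.00675) and was lost without the second knockdown library or either SCR library, with an adjusted p of at most 0.0675. SF3B4 rose by 0.29. SF3B6, the branch-point protein p14, had 88.44 and 88.51 FPKM against 74.68 and 76.16 FPKM and rose by 0.23 (adjusted p = 0.00577), but turned to -0.16 (adjusted p = 0.0174) with the composition trends removed. SF3B5, at 108.73 and 110.74 FPKM against 109.35 and 107.89 FPKM, overlapped between groups (log2 fold change 0.015, adjusted p = 0.717). SF3B3, the propeller-shaped scaffold of the complex, overlapped as well, at 21.98 and 22.40 FPKM against 22.28 and 22.62 FPKM. SF3B5 and SF3B3 were thus level while their partners rose, and with the composition trends removed they stood at -0.058 and 0.11, neither of them called. Counting SNRPA1, SNRPB2 and the SF3 subunits together, 9 of the 11 U2 snRNP proteins among the members were higher and 0 lower. Their median log2 fold change was 0.43. The share of higher genes was 81.8%, beside 30.8% over all genes and 47.1% over genes of at least 10 FPKM. The count of 0 lower held only for the values as deposited, since SF3B6 was called lower with the trends removed. The summed SF3A and SF3B level was 664 and 665 FPKM with knockdown and 533 and 535 FPKM with SCR.

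Promoters are shown for 4 of the higher U2 snRNP genes, with those of HNRNPAB and HNRNPD, the hnRNP genes with the largest rise and fall. Each window spans 300 bases around the RefSeq transcript start (GRCh38.p14), most of them upstream of it, 5′ to 3′ on the strand of the gene. Capitals mark exact matches on either strand to CCGGAAG (a motif of ETS factors), CCAAT (the NF-Y box), CACGTG (an E-box) or AAGATGGC (a motif of YY1), and no 2 of the motifs overlap in these windows.
SNRPA1 (chr15:101295199-101295498, minus strand): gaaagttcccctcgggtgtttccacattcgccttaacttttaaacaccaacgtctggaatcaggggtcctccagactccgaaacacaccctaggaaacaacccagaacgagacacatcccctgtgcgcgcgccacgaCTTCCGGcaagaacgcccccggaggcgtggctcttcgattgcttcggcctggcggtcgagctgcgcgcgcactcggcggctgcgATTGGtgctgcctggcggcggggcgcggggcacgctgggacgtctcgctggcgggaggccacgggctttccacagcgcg
SF3A3 (chr1:37989973-37990272, minus strand): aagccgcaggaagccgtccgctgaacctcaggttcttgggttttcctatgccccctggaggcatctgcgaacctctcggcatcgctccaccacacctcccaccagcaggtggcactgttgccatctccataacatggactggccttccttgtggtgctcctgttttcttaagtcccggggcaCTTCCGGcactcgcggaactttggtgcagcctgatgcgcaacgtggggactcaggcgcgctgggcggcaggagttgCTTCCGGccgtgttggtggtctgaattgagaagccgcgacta
SF3A2 (chr19:2236574-2236873, plus strand): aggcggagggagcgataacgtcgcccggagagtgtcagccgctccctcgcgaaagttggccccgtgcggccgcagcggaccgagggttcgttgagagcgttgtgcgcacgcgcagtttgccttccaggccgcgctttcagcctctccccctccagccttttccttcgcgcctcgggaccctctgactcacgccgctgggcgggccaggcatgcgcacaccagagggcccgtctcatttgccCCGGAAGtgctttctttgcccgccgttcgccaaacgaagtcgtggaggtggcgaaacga
SF3B2 (chr11:66052114-66052413, plus strand): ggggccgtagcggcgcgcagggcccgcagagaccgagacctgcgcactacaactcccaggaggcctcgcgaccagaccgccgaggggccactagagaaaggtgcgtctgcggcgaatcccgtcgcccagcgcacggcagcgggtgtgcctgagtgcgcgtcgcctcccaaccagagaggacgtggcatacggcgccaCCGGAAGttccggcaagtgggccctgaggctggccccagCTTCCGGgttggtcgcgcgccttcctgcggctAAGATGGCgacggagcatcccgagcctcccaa
HNRNPAB (chr5:178204283-178204582, plus strand): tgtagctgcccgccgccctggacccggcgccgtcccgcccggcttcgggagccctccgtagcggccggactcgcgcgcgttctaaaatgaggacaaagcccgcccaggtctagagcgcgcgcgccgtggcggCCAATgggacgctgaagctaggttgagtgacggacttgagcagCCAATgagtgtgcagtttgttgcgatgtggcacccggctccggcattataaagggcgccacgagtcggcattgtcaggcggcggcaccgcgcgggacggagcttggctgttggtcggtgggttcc
HNRNPD (chr4:82373942-82374241, minus strand): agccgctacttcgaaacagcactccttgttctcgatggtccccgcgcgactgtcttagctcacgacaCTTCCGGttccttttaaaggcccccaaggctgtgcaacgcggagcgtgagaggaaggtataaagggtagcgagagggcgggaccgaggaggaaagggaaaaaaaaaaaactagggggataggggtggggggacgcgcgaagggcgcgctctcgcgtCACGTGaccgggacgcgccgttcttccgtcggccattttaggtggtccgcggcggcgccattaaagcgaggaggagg
The 4 U2 windows each held CCGGAAG or its reverse complement at least once, and that of HNRNPD held it too. Of the members with a value, 56 had a window in the RefSeq table, and HNRNPA1, SNRPD1, SRSF2 and SF3B3 had none. The ETS motif occurred in 19 of these 56 windows (33.9%), beside 16.2% of the 13258 windows of tested genes. It was found in 8 of 10 windows of U2 snRNP proteins, 4 of 6 of Sm ring proteins, 2 of 11 of SR proteins and 3 of 22 of hnRNP proteins. It was present in members of both directions, since 11 of the 26 windows of higher members and 4 of the 7 windows of lower members held it. The CCAAT box was in 39.3% of member windows and 36.6% of all, and in 15 of 22 hnRNP windows. The E-box was in 14.3% and 9.35%, and AAGATGGC in 5.36% and 4.43%. The palindromic core motif of NRF1 and TGACGTCA (the cAMP response element) were in 0 member windows, beside 1.98% and 2.91% of all. These matches describe letters in the windows and do not show binding, and whether they bear on the changes was not tested.

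The Sm ring rose in 6 of its 7 genes, and 0 fell. That is 85.7% higher, beside 30.8% over all genes and 47.1% over genes of at least 10 FPKM. With the composition trends removed SNRPF, SNRPE and SNRPD3 were not called and SNRPG was called lower, as given below. SNRPB, which encodes SmB/B′, was at 124.74 and 119.92 FPKM with PTPRN knockdown and at 76.38 and 70.39 FPKM with SCR. The groups lay far apart, with a ratio of 1.67 (log2 fold change 0.73, SE 0.055, limma, adjusted p = 0.00145). SNRPF, which encodes SmF, had 39.70 and 34.56 FPKM against 23.23 and 23.31 FPKM. Its knockdown replicates stood apart from each other, yet both were above the SCR values (log2 fold change 0.65, SE 0.077, adjusted p = 0.00442). SNRPF has the lowest GC content of the snRNP genes, 35.4%, and with the composition trends removed its log2 fold change was 0.17 with an adjusted p of 0.0782. It was also not called without either SCR library, with an adjusted p of up to 0.0944.

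SNRPD2 (SmD2) was the most abundant of the ring, with 225.23 and 214.06 FPKM against 171.41 and 166.94 FPKM, and did not overlap (log2 fold change 0.37, adjusted p = 0.00364). SNRPE, SNRPD1 and SNRPD3 rose by 0.36, 0.34 and 0.29, with adjusted p of 0.00453, 0.00467 and 0.0310. The calls of SNRPD2 and SNRPE were lost without either SCR library, that of SNRPD1 without either knockdown library, and that of SNRPD3 without any one of the libraries. With the composition trends removed SNRPE and SNRPD3 stood at 0.074 and 0.17 and were not called (adjusted p = 0.195 and 0.0511). SNRPG (SmG) was the exception, with 88.10 and 91.28 FPKM against 87.27 and 84.87 FPKM. The nearest libraries of its groups were apart by less than 1 FPKM (log2 fold change 0.059, adjusted p = 0.258). Its direction turned under both rescalings of the libraries, at -0.030 and -0.017, and with the composition trends removed it was called lower at -0.35 (adjusted p = 0.00166). The summed level of the ring was 565 and 543 FPKM with knockdown and 426 and 411 FPKM with SCR, a ratio of 1.32.

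Of the remaining snRNP members, SNRPN and SNRPC fell and SNRPA was not called. SNRPN, an imprinted gene whose product SmN replaces SmB/B′ mainly in neurons, fell from 23.82 and 22.94 FPKM with SCR to 16.16 and 15.70 FPKM with knockdown. It moved against SNRPB, its closest relative in the set, with no overlap (log2 fold change -0.53, SE 0.037, limma, adjusted p = 0.00123). SNRPN shares 34.0% of its 50-base words with SNURF, which overlaps it on the same strand, so their reads could be divided between them. SNRPC, the U1-C protein that stabilizes U1 on the 5′ splice site, was at 54.01 and 49.95 FPKM against 64.67 and 68.40 FPKM. Both knockdown values were lower (log2 fold change -0.35, SE 0.057, adjusted p = 0.0107), but the call was lost without any one of the 4 libraries, with an adjusted p of up to 0.116. With the composition trends removed its fall was larger, at -0.56. The other U1 proteins were not called: SNRPA (U1-A) had 37.36 and 41.40 FPKM against 35.28 and 34.59 FPKM (log2 fold change 0.17, adjusted p = 0.0891). SNRNP70 (U1-70K), whose symbol falls outside the rule, had 70.56 and 67.02 FPKM against 64.87 and 61.11 FPKM (adjusted p = 0.108). SNRNP200, the U5 helicase also outside the rule, had 41.21 and 43.19 FPKM against 39.33 and 40.82 FPKM (adjusted p = 0.225). With the composition trends removed SNRPA, SNRNP70 and SNRNP200 were called higher, at 0.21, 0.40 and 0.26.

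**Figure D2:**
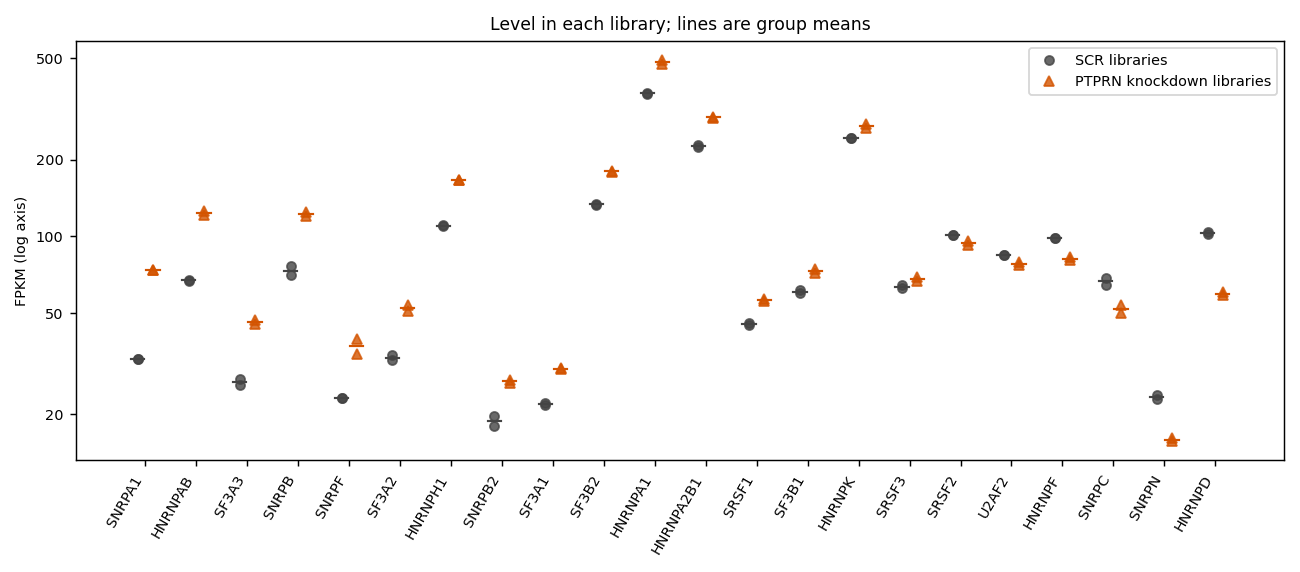
FPKM on a log axis (y axis) of 22 members in each SCR library (circles) and each PTPRN knockdown library (triangles), with short lines at the group means, ordered from the largest rise to the largest fall (x axis). The symbols of the groups lie far apart for SNRPA1 at the left and for HNRNPD at the right and come close together for SRSF3 and SRSF2.

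Of the U2AF family, which recognizes the 3′ splice site, 1 member was higher and 1 lower. U2AF2, the large subunit that binds the polypyrimidine tract, had 79.11 and 77.03 FPKM with PTPRN knockdown against 84.86 and 84.79 FPKM with SCR. The groups did not overlap, but the fall was small (log2 fold change -0.12, SE 0.031, limma, adjusted p = 0.0393). It was lost without any one library and turned to 0.10 (adjusted p = 0.0766) with the composition trends removed. U2AF1, the small subunit that reads the AG, had 71.79 and 72.01 FPKM against 44.68 and 55.60 FPKM. The SCR libraries differed widely from each other, and the rise was 0.52 (SE 0.117, adjusted p = 0.0257).

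The spread of U2AF1 had a counterpart in its copy. U2AF1 (chr21:43092956-43107578) and U2AF1L5 (chr21:6484623-6499284) lie on the same chromosome, and 98.9% and 98.4% of the 50-base words of their transcripts occur in another gene, so reads of 50 bases can seldom be assigned to one of them. U2AF1L5 was at 12.38 and 12.43 FPKM with knockdown and at 22.98 and 9.33 FPKM with SCR. In SCR 1, where U2AF1 was lowest, U2AF1L5 was highest, and U2AF1L5 was not called (log2 fold change -0.23, SE 0.446, adjusted p = 0.707). Without SCR 1 its log2 fold change was 0.38. U2AF1 ranged from 0.37 to 0.67 when 1 library was left out and was not called without either knockdown library. The sum of both genes was 84.17 and 84.44 FPKM with knockdown and 67.66 and 64.93 FPKM with SCR. The SCR libraries differed less in the sum than in either gene, and the sum rose by 0.34 (SE 0.035, adjusted p = 0.00306), an analysis added after the data had been seen. U2AF1L4, a paralog, had 6.76 and 6.91 FPKM against 5.56 and 7.10 FPKM and overlapped (adjusted p = 0.506).

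**Figure D3:**
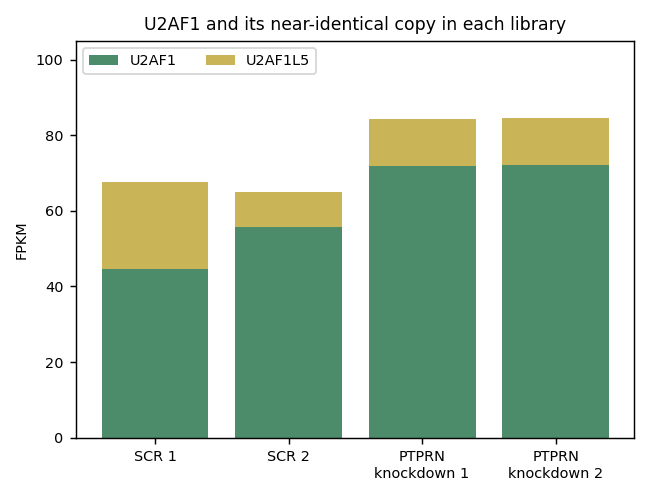
FPKM (y axis) of U2AF1 (green) and U2AF1L5 (yellow), stacked, in each of the 4 libraries (x axis). The division between the genes differs between SCR 1 and SCR 2, while the total stands at 67.66 and 64.93 FPKM in the SCR libraries and at 84.17 and 84.44 FPKM in the knockdown libraries.

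The SR proteins changed little. Of 12, 3 were higher and 0 lower, and the 12 log2 fold changes lay between -0.10 and 0.31 with a median of 0.11. The share of higher genes, 25%, stood beside 30.8% over all genes and 47.1% over genes of at least 10 FPKM. SRSF1 (SF2/ASF), the founding SR protein, had 55.58 and 56.92 FPKM with PTPRN knockdown and 44.72 and 45.67 FPKM with SCR. It was the SR gene with the largest rise, with no overlap (log2 fold change 0.31, SE 0.032, limma, adjusted p = 0.00321), and with the composition trends removed it stood at 0.11 with an adjusted p of 0.0555. Of its 50-base words, 58.5% also lie in the annotated transcript AC015813.2. SRSF9 had 176.93 and 175.53 FPKM against 159.92 and 150.04 FPKM, the highest level of the family (log2 fold change 0.18, adjusted p = 0.0295). All of its 50-base words also lie in GATC, a gene that overlaps it on the opposite strand, and the library kit is not stated to keep the strand. Its call was lost without either knockdown library or without SCR 2, and with the composition trends removed its log2 fold change was -0.13. SRSF11 rose by 0.17 (adjusted p = 0.0414), a call lost without either knockdown library or without SCR 1, and stood at -0.064 with the composition trends removed. Thus 0 SR genes were higher, and 2 were lower, when those trends were taken out.

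SRSF2 (SC35) was the only SR gene with both knockdown libraries below SCR, with 92.79 and 95.75 FPKM against 101.01 and 101.68 FPKM. It was not called (log2 fold change -0.10, adjusted p = 0.0622), although with the composition trends removed it was, at -0.25 (adjusted p = 0.00421). SRSF2 shares 29.5% of its words with the overlapping MFSD11. SRSF3, the smallest SR protein, had 69.29 and 66.74 FPKM against 64.59 and 62.54 FPKM (log2 fold change 0.096, adjusted p = 0.107). SRSF5, SRSF6 and SRSF7 had log2 fold changes of 0.11, 0.10 and 0.086, with adjusted p of 0.0634, 0.175 and 0.134. All 4 of these turned negative with the composition trends removed, at -0.071, -0.11, -0.053 and -0.13, and SRSF7 was then called lower (adjusted p = 0.0378). SRSF12 was at 0.25 to 0.48 FPKM, and SRSF8 at 2.95 to 3.37 FPKM. The summed level of the family was 676 and 667 FPKM with knockdown and 623 and 615 FPKM with SCR, a ratio of 1.08.

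Of the 23 hnRNP genes tested, 9 were higher, 4 lower and 10 not called. The shares were 39.1% higher and 17.4% lower, beside 30.8% and 27.1% over all genes. Over genes of at least 10 FPKM they were 47.1% and 31.7%, so calls in both directions were not particular to this family. HNRNPAB, which binds single-stranded nucleic acid and takes part in RNA editing and transport complexes, had the largest rise. It was at 125.61 and 120.99 FPKM with PTPRN knockdown and at 67.09 and 67.35 FPKM with SCR. That ratio of 1.83 was far beyond the spread of replicates (log2 fold change 0.87, SE 0.034, limma, adjusted p = 4.60e-04), and with the composition trends removed it was 0.83. The gene (chr5:178204507-178211183, plus strand) overlaps PHYKPL on the opposite strand over 8.41% of its words. HNRNPH1, which binds G-runs, had 166.61 and 167.13 FPKM against 109.46 and 110.94 FPKM. Replicates were within 2 FPKM of each other and the groups did not overlap (log2 fold change 0.59, SE 0.029, adjusted p = 6.17e-04).

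HNRNPD (AUF1), which binds AU-rich elements in mRNA and belongs to the same subfamily as HNRNPAB and HNRNPDL, had the largest fall of all members. It was at 58.64 and 60.63 FPKM with knockdown and at 102.47 and 104.19 FPKM with SCR. The knockdown libraries held 0.577 times the SCR level, with no overlap (log2 fold change -0.78, SE 0.034, limma, adjusted p = 5.24e-04). The 3 relatives thus differed: HNRNPAB rose, HNRNPD fell, and HNRNPDL had 65.02 and 64.29 FPKM against 64.56 and 64.61 FPKM (log2 fold change 0.0015, adjusted p = 0.976, and -0.072 with the composition trends removed). HNRNPD (chr4:82353314-82373996) and HNRNPDL (chr4:82422564-82430225) lie side by side on the minus strand of chromosome 4. HNRNPD has a GC content of 36.1%, among the lower ones of the members, and with the composition trends removed its fall was larger, at -1.002 (adjusted p = 5.11e-05).

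The other lower hnRNP genes were HNRNPF, HNRNPUL1 and HNRNPA1L2. HNRNPF, a close relative of HNRNPH1, had 82.70 and 80.64 FPKM against 98.89 and 98.79 FPKM. It fell with no overlap while HNRNPH1 rose (log2 fold change -0.27, SE 0.031, adjusted p = 0.00394). HNRNPUL1 had 89.05 and 93.23 FPKM against 101.41 and 101.94 FPKM and fell by 0.16 on the log2 scale (adjusted p = 0.0292), which was lost without the first knockdown library or either SCR library and stood at 0.0082 with the composition trends removed. HNRNPA1L2, a retrocopy of HNRNPA1 of which 58.5% of words occur in other genes, was at 1.69 to 1.94 FPKM against 2.41 to 2.61 FPKM, and its call was lost without any one library. With the composition trends removed its change was -0.61.

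The most abundant members were hnRNP genes. HNRNPA1, the prototype of exon silencing, had 493.84 and 475.38 FPKM with knockdown and 363.63 and 365.94 FPKM with SCR, the highest levels of all 60. It rose with no overlap (log2 fold change 0.41, SE 0.035, limma, adjusted p = 0.00189), although 29.1% of its words also occur in 57 other genes. HNRNPA2B1, its partner in hnRNP core particles, had 291.99 and 294.85 FPKM against 224.66 and 228.88 FPKM and rose by 0.37 (adjusted p = 0.00172). HNRNPK, the poly(C)-binding protein, had 275.31 and 265.72 FPKM against 243.55 and 242.74 FPKM. That rise of 0.15 (adjusted p = 0.0242) was lost without the first knockdown library or either SCR library and turned to -0.043 with the composition trends removed. HNRNPM and HNRNPL rose by 0.39 and 0.29 (adjusted p = 0.00168 and 0.00634), the call of HNRNPL being lost without either SCR library. HNRNPA3 and HNRNPH3 rose by 0.16 and 0.13 (adjusted p = 0.0153 and 0.0369). HNRNPA3 was lost without the second knockdown library or either SCR library, HNRNPH3 without any one library, and with the composition trends removed they stood at 0.0086 and -0.020.

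HNRNPC, which coats nascent transcripts and blocks cryptic exons, had 120.03 and 117.29 FPKM against 110.84 and 115.61 FPKM (log2 fold change 0.067, adjusted p = 0.216). Its direction turned under both rescalings, at -0.067 and -0.0090. HNRNPU, the scaffold attachment factor, had 73.46 and 75.70 FPKM against 74.19 and 78.27 FPKM and overlapped (log2 fold change -0.031, adjusted p = 0.593). HNRNPCL1 and HNRNPCL2 were at 0 to 0.10 FPKM in all libraries, too low for a comparison at this depth. The summed hnRNP level was 2474 and 2441 FPKM with knockdown and 2106 and 2129 FPKM with SCR, a ratio of 1.16.

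**Figure D4:**
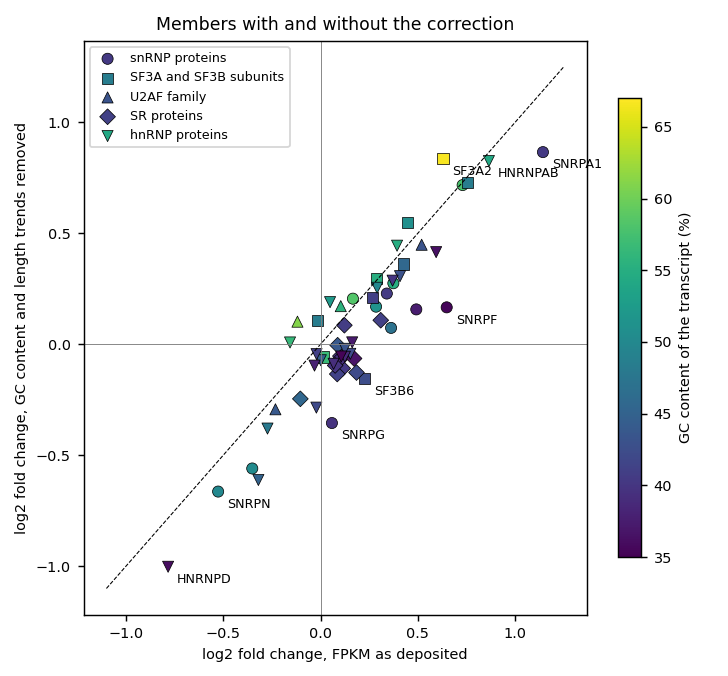
Log2 fold change of each member with a mean of at least 1 FPKM, from the FPKM as deposited (x axis) and after trends on GC content and transcript length were removed from each library (y axis), coloured by GC content in percent, with 1 symbol per role and the dashed line at equality. SNRPA1, HNRNPAB and HNRNPD stay far from 0 on both axes, while SNRPF drops to 0.17 and SNRPG to -0.35.

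Other genes of the splicing pathway were counted from lists drawn up by role. Among the 142 tested genes that the deposited KEGG annotation places in the spliceosome and that are not members, 78 were higher (54.9%) and 24 lower (16.9%), with a median log2 fold change of 0.20. These and the following counts stand beside 30.8% higher and 27.1% lower over all genes, and 47.1% and 31.7% over genes of at least 10 FPKM, and several, such as those of the coactivators and other regulators, have shares of higher genes near the latter. Of the 45 tested members with that annotation, 22 were higher and 3 lower. Counts for the KEGG genes and for all lists are for FPKM as deposited. They were not repeated with the composition trends removed. The Prp19-associated and activated-spliceosome proteins, listed together with SF1, PUF60, SMNDC1 and PHF5A, were higher in 20 of 23 genes and lower in 1. The median of the list was 0.36. Their largest rise was that of BCAS2 (SPF27), a core subunit of the Prp19 complex, at 70.59 and 73.30 FPKM against 32.14 and 32.10 FPKM. The groups had no overlap (log2 fold change 1.14, SE 0.034, limma, adjusted p = 3.40e-04), and with the composition trends removed the rise was 0.72. CWC25, a factor of the earlier catalytic step, fell by 0.18 (adjusted p = 0.0424).

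The proteins of the U4/U6.U5 tri-snRNP and the PRPF series were higher in 12 of 21 genes and lower in 1. PRPF18, a factor of the later catalytic step, had 15.46 and 16.69 FPKM against 8.14 and 7.82 FPKM and rose with no overlap (log2 fold change 0.93, adjusted p = 7.60e-04), by 0.58 with the composition trends removed. The LSM proteins, most of which form the rings on U6 small nuclear RNA and on decaying mRNA, were higher in 6 of 10 genes and lower in 1. LSM3 had 135.84 and 133.47 FPKM against 76.24 and 69.51 FPKM (log2 fold change 0.88, adjusted p = 0.00104), while LSM2 fell by 0.21 (adjusted p = 0.0204). The spliceosomal helicases were divided, with 6 of 13 higher and 5 lower. DDX39A, an RNA helicase of the UAP56 family, had 107.75 and 103.19 FPKM against 61.67 and 59.10 FPKM (log2 fold change 0.79, adjusted p = 7.21e-04), and DHX16 (the human Prp2) had 16.47 and 17.30 FPKM against 24.74 and 23.58 FPKM (log2 fold change -0.49, adjusted p = 0.00222). Of the minor spliceosome, which removes U12-type introns, 4 of 5 genes were higher and 0 lower. ZCRB1 rose by 0.36 (adjusted p = 0.00276), a value that turned to -0.091 with the composition trends removed.

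Regulators of the SR proteins moved both ways. Of 9 SR protein kinases and their partners, 4 were higher and 2 lower. SRPK1, the kinase that sends SR proteins into the nucleus, had 23.59 and 25.36 FPKM against 15.99 and 15.61 FPKM and rose with no overlap (log2 fold change 0.60, SE 0.048, limma, adjusted p = 0.00165). PRPF4B, a kinase of the pre-spliceosome, had 8.17 and 7.68 FPKM against 12.09 and 11.59 FPKM and fell (log2 fold change -0.52, adjusted p = 0.00199). Of 20 SR-related coactivators, 10 were higher and 4 lower, from CCNL1 (cyclin L1) at 0.59 to ACIN1, which binds the exon junction complex, at -0.52 (adjusted p = 0.00490 and 0.00138). Of 41 other sequence-specific splicing regulators, 18 were higher and 8 lower, with a median of 0.066. RALY, an hnRNP C-like protein whose symbol falls outside the rule, had 55.74 and 55.60 FPKM against 30.83 and 29.68 FPKM (log2 fold change 0.86, adjusted p = 4.62e-04). TAF15, of the FET family, had 55.47 and 55.35 FPKM against 93.84 and 93.15 FPKM and fell with no overlap (log2 fold change -0.74, adjusted p = 4.28e-04).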

How the data were processed

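Total RNA of U87 cells was sequenced as single-end reads of 50 bases on a BGISEQ-500, with 2 libraries per group. The authors deposited 1 FPKM value per gene and library, with NCBI Gene IDs, GRCh38 positions and other columns such as KEGG pathways. The submitters' processing notes name HISAT2 2.1.0 and hg19, while the positions in the tables are those of GRCh38, and the counting program is not given in the sources used here. The columns of the authors' own comparisons (fold changes and p-values) were not used. No counts were given, so limma 3.58.1 (R 4.3.3) was fitted to log2(FPKM + 1) of the 16595 genes with a value above 0, with group as the only term, default eBayes options and Benjamini-Hochberg adjustment over all genes, after the script had been tested on simulated data. A median of 3.72 degrees of freedom stood behind each test. An exact permutation of 2 against 2 libraries cannot go below p = 0.333 and was not used. Fold changes on this scale understate changes of low genes.

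Members and lists were chosen with earlier results of these data known. Named by rule were members past a fold of 2 at an adjusted p of 0.001, the 8 largest rises and falls among called members of at least 10 FPKM without overlap, the 3 most abundant of each role, members picked by textbook role and, from each pathway list, the largest rise and fall of that level. SNRPB2, SNRPE, SNRPD1, SNRPD3, SF3B3, SF3B4, SRSF8, SRSF11, SRSF12, HNRNPM, HNRNPA3, HNRNPH3, HNRNPDL, HNRNPA1L2, HNRNPCL1 and HNRNPCL2 were named after their values were seen. A gene that the rule picks from a pathway list is not reported here. Shared sequence was the share of 50-base words of a gene's longest GENCODE transcript found in another gene. GC content and the length used for the trends came from that same transcript. It can differ from the transcript behind the FPKM: SNRPA1 had 2391 such words, beside a deposited transcript length of 1086 bases. Depth was estimated from genes with 1 transcript, of whose low values 74.2% to 79.0% lay within 0.1 of a whole read, and so covers no counting error of its own. Promoters came from RefSeq. Python 3.11.15 and pandas 2.3.3 were used. Alternatives were log2(FPKM + 0.1), genes reaching 1 FPKM in 2 libraries, a replicate block, quantile and median-ratio scaling, an eBayes trend, removal of GC content and length trends and leaving out each library. Lists of myeloid and epithelial markers were checked beside the endothelial and glioma ones.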

Additional observations from a re-analysis of the deposited data

How the results depend on the processing

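Over the 12 alternatives, 12 of the 28 higher members (SNRPA1, HNRNPAB, SF3A3, SNRPB, SF3A2, HNRNPH1, SF3A1, SF3B2, HNRNPA1, HNRNPM, HNRNPA2B1 and SF3B4) and 3 of the 7 lower ones (HNRNPD, SNRPN and HNRNPF) were called in the same direction each time, as was PTPRN. When each library was left out, 19 to 22 members were higher and 3 to 5 lower, fits in which a lone library is assumed to vary like the other group. The count of lower members was 11 with GC content and length trends removed. The strict count of higher members, 1, was 0 with a pseudocount of 0.1 (a setting with 10185 genes at an unadjusted p below 0.05), with the replicate block, with GC content and length trends removed and without any one library (0 to 0), and the strict count of lower members was 1 (HNRNPD) with those trends removed. The median log2 fold change of members, 0.12, was 0.14 with the pseudocount of 0.1, 0.090 with quantile normalization, 0.065 with median-ratio scaling, 0.0020 with the trends removed and 0.13 to 0.15 without 1 library. The replicate block gave 26 higher and 6 lower members. The libraries share only a number, deviations of same-numbered libraries correlated at 0.064 over 11272 genes, and no source pairs them. Among genes named by the rule, directions turned with the trends removed for HNRNPUL1 (0.0082), U2AF2 (0.10), HNRNPK (-0.043), SNRPG (-0.35), SRSF9 (-0.13), SRSF5 (-0.11), SF3B5 (-0.058), SF3B6 (-0.16), SRSF3 (-0.071), SRSF6 (-0.053), SRSF7 (-0.13), HNRNPC (-0.088) and ZCRB1 (-0.091). They turned with quantile normalization for SNRPG (-0.030), SF3B5 (-0.11) and HNRNPC (-0.067), with median-ratio scaling for SNRPG (-0.017), SF3B5 (-0.062), SNRNP200 (-0.0025) and HNRNPC (-0.0090), and with 1 library left out for U2AF1L5 (-0.84 to 0.38, positive without SCR 1), U2AF1L4 (-0.048 to 0.26, negative without SCR 1) and HNRNPU (-0.069 to 0.0073, positive without SCR 2). Of the other members named, SRSF8 (-0.0042), SRSF11 (-0.064), SRSF12 (-0.11), HNRNPH3 (-0.020), HNRNPDL (-0.072), HNRNPCL2 (-0.15) and SF3B3 (0.11) turned with the trends removed, and HNRNPDL (-0.074) with median-ratio scaling. The cause was not tested. Summing U2AF1 and U2AF1L5 was chosen after seeing the data and left 28 higher and 7 lower. With 2 libraries per group and no counts, small changes of genes below 1 FPKM were not detectable.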

Other observations

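The genes that load Sm proteins onto small nuclear RNA, the snRNP assembly list, were higher with PTPRN knockdown in 13 of 18 genes and lower in 2. The median log2 fold change was 0.40. This and the list counts that follow are for FPKM as deposited. SMN2, a survival motor neuron gene, had 34.12 and 36.18 FPKM with knockdown against 18.91 and 14.62 FPKM with SCR. Both knockdown libraries were higher (log2 fold change 1.03, SE 0.135, limma, adjusted p = 0.00573), and its near-identical copy SMN1, with 33.74 and 35.75 FPKM against 22.31 and 26.02 FPKM, rose by 0.51 (adjusted p = 0.0126). Reads of these copies can hardly be told apart, so the division between them is uncertain. SNUPN (snurportin), the import adaptor for assembled snRNPs, fell from 21.18 and 20.07 FPKM to 13.45 and 14.12 FPKM with no overlap (log2 fold change -0.55, adjusted p = 0.00183).

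Genes that act after splicing were counted as well. Of 18 genes of the exon junction complex and mRNA export, 12 were higher and 3 lower. MAGOHB, a core subunit of the exon junction complex, had 12.95 and 12.91 FPKM against 7.81 and 6.73 FPKM (log2 fold change 0.76, adjusted p = 0.00277, and 0.37 with GC content and length trends removed), and POLDIP3 fell by 0.39 (adjusted p = 0.00633). Of 10 nonsense-mediated decay factors, 5 were higher and 1 lower, a share of higher genes near the 47.1% over genes of at least 10 FPKM. UPF2, the bridge between UPF1 and UPF3, had 14.87 and 15.45 FPKM against 8.25 and 9.21 FPKM and rose with no overlap (log2 fold change 0.73, adjusted p = 0.00191).

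Of the marker lists, 3 of 10 endothelial genes were higher and 2 lower, with no value above 2.5 FPKM, and 1 of 8 myeloid genes was higher and 2 lower, with no value above 3.17 FPKM. Of 9 epithelial genes 0 were higher and 2 lower, KRT8 with 1.97 and 1.99 FPKM against 6.34 and 5.98 FPKM being the highest. Of 9 glial and glioma line genes 3 were higher and 4 lower, and of 2 genes of the CDKN2A locus 0 were called in either direction at an adjusted p of at most 0.05 in limma, with unadjusted p of 0.410 and 0.212.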
